A study of Mus musculus with 20 samples.

Results

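Transcript levels in the inner nuclear layer (INL) of the mouse retina were compared between dark-adapted and light-adapted animals on 4 of the 20 Affymetrix gene arrays of the study. The 4 arrays are those labelled as INL, 2 from mice adapted to light and 2 from mice adapted to darkness, and 15057 genes were tested. The mice were C57BL/6 adults aged 7 to 8 weeks with no transgene or mutation named in the labels. Light adaptation lasted 6 h in a room lit at 450 lux, and dark adaptation lasted 3 h in a chamber held at 0.4 lux or less. The clock time at which each group was killed is not stated, and the adaptations differ in length as well as in light. The INL was cut from the retina by laser capture, RNA was extracted with Trizol, and labelled cRNA was made with a 2-cycle amplification protocol. The other 16 arrays hold the photoreceptor layer, the inner plexiform layer (IPL), the ganglion cell layer (GCL) and the whole retina in the same light and dark design. Nothing in the labels ties an array to an animal or says how many animals were pooled, so a p-value here reflects only how far deposited samples differ, and that spread may be technical. All levels below are log2 of the deposited intensity with values under 8 set to 8, so that 3.00 is the floor. All differences are dark minus light on that scale (n = 2 arrays against 2), with the standard error of a limma fit. That fit takes its spread from replicates on all 20 arrays. A standard error is therefore not the spread of the 4 INL arrays alone.

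The INL holds the cell bodies of bipolar, horizontal and amacrine cells and of Müller glia, and lies beneath the outer nuclear layer, where the rod and cone cell bodies sit. In darkness rods release glutamate steadily and light reduces that release. ON bipolar cells read the change through the receptor mGluR6, whose G protein holds the channel TRPM1 shut in darkness. Retinal dopamine, melatonin and clock genes are classic outputs of the same light and dark cycle, and immediate early genes are a common read-out of a change in neuronal activity.

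No gene passed the threshold in this comparison (limma, adjusted p under 0.05). The smallest adjusted p was 0.119, and 473 genes (3.14% of those tested) had an unadjusted p under 0.05, of which 197 were higher in the dark (1.31%) and 276 lower (1.83%). The median difference over all genes was -0.02, and the 5th and 95th percentiles lay at -0.47 and 0.49. A typical gene carried a standard error of 0.28. Rod photoreceptor transcripts were prominent among the genes with higher values in the dark, among them rod transducin Gnat1, the phosphodiesterase subunit Pde6b and the exchanger Slc24a1. On the lower side the sodium pump subunit Atp1b3 and the translation regulator Paip2 had the smallest p, and among bipolar cell genes the channel Trpm1 did.

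The labelled layer was checked against its marker genes. Bipolar cell markers had a mean level of 6.84 in the INL, against 6.15 in the photoreceptor layer, 6.51 in the IPL and 6.08 in the GCL. Horizontal cell markers were also highest in the INL among the dissected layers, at 6.37, and Müller glia markers stood at 6.66 against 6.54 in the IPL. Amacrine markers gave 6.03, below the IPL at 6.29 and the GCL at 6.22. In the whole retina the bipolar, horizontal, Müller and amacrine lists stood at 6.84, 6.52, 6.77 and 6.02. None of these lists was thus clearly higher in the INL than in undissected retina. The ganglion cell marker Thy1 was at the floor on all 4 INL arrays. The ganglion cell list stood at 5.38 in the INL and 7.08 in the GCL.

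The 4 arrays were alike in overall signal, with median intensities of 40.5 to 40.8 and 11.6% to 11.9% of values under the floor. Across genes, the light arrays correlated with each other at 0.908 and the dark arrays at 0.858. The 2 arrays numbered 2 correlated at 0.902, above the value for the dark arrays. The light array numbered 1 correlated with the dark array numbered 1 at 0.928, higher than with the other light array. That light array also carried Y-linked signal, with a median intensity of 231.9 over 30 Y-linked probe sets against 14.4 to 21.6 on the other 3, and its Xist intensity was 29.2 against 141.3 to 514.3. The Y-linked gene Eif2s3y had an intensity of 7.9 there and of 4.7 to 5.9 on the other 3. In the whole series 5 arrays carried such signal, among them both light-adapted GCL arrays. All 5 were light-adapted, and no dark-adapted array carried it. What this signal contributes was not tested, and values without that INL array are given where they matter.

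Rod transcripts came first in size. The 19 measured members of a list of 23 rod genes cover the phototransduction cascade from transducin to the cyclic nucleotide-gated channel, the enzymes that end the response, and disc proteins. Several of them have promoters in the RefSeq table (GRCm38.p6), and 4 are shown to set the promoter letters of genes with large differences beside those of a gene with none. Each run is the 250 bases before the annotated start, 5′ to 3′ on the gene's strand. Capitals mark TAATCC, the core bound by the photoreceptor factors OTX2 and CRX, or TGCTGA, a core site of the MAF family that includes NRL, on either strand (GGATTA and TCAGCA as read here). Cnga1 lies at chr5:72642753-72643002 (minus strand), Pde6b at chr5:108388123-108388372 (plus), Slc24a1 at chr9:64951621-64951870 (minus) and Gucy2e at chr11:69237023-69237272 (minus).
Cnga1 promoter: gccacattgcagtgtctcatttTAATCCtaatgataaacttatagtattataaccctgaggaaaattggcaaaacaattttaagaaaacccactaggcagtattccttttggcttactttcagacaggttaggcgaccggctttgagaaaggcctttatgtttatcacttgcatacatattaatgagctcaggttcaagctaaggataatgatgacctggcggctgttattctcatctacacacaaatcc
Pde6b promoter: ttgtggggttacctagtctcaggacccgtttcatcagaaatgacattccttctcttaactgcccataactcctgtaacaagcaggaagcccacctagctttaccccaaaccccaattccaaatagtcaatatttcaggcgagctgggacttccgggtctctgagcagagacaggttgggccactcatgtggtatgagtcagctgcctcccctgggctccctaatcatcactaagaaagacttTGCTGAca
Slc24a1 promoter: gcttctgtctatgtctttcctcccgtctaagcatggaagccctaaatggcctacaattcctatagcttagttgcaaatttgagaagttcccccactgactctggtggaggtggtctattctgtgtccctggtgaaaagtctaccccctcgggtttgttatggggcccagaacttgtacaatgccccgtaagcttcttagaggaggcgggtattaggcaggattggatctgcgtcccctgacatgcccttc
Gucy2e promoter: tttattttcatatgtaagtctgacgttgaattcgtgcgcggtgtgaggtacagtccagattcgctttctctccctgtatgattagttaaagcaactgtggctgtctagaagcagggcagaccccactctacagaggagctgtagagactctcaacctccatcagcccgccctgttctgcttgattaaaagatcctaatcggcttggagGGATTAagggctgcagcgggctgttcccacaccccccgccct
Cnga1 and Gucy2e held 1 TAATCC match each, Pde6b held 1 TGCTGA match, and Slc24a1 held neither. Of the 14 rod genes with an entry, 7 held TAATCC and 2 held TGCTGA, while 6.25% and 16.1% of all 32851 promoter windows of the same length did. Among the 4 shown, Cnga1 differed most between dark and light and Gucy2e hardly at all, although both carry the OTX and CRX core. A match describes letters only, and Gnat1, Rp1, Pde6a, Rcvrn and Pde6g had no entry in the table.

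The transducin subunits couple light capture to the phosphodiesterase. Gnat1, the rod α subunit, was at 6.37 and 6.89 on the light arrays and at 8.39 and 9.31 on the dark arrays. Both dark arrays were above both light arrays, and the difference was 2.21 ± 0.55 (adjusted p = 1). The GCL arrays of Gnat1, at 7.26 and 9.72 in the light and 8.33 and 7.10 in the dark, add to that standard error. Gnb1, the β subunit, which is used by many cells besides rods, was at 6.77 and 7.72 in the light and at 7.84 and 9.31 in the dark. Its groups came within a short distance of each other, with a difference of 1.33 ± 0.43. The γ subunit Gngt1 was at 6.13 and 6.26 against 6.41 and 7.42 (0.72 ± 0.36).

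The phosphodiesterase that transducin activates hydrolyses cGMP. Its catalytic subunit Pde6a was at 5.42 and 5.84 in the light and at 6.99 and 7.82 in the dark, a difference of 1.77 ± 0.59. Pde6b, the second catalytic subunit, was at 6.04 and 5.93 against 7.15 and 8.25 (1.72 ± 0.46). For both genes the dark arrays were clear of the light arrays, and the dark array numbered 2 was the highest. The inhibitory subunit Pde6g was at 7.30 and 6.95 against 7.65 and 8.06 (0.73 ± 0.43).

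The channel that cGMP opens gave the largest and one of the smallest differences of the cascade. Cnga1, its α subunit, was near the floor on the light arrays, at 3.77 and 3.46, and at 5.87 and 6.86 on the dark arrays. The difference was 2.75 ± 0.87, a 6.75-fold ratio of geometric means, and missed the threshold (adjusted p = 1). Cngb1, the β subunit, was at 8.87 and 8.56 in the light and at 8.82 and 8.52 in the dark, so that its groups overlapped (-0.04 ± 0.24). Slc24a1, the exchanger that clears calcium from the outer segment, had the smallest p of the list, with arrays at 6.45 and 6.55 against 7.39 and 7.65 (1.02 ± 0.23).

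Genes that shape or shut off the response differed less. Arrestin Sag was at 7.03 and 7.07 against 7.32 and 8.16, and the receptor kinase Grk1 at 6.84 and 6.30 against 6.84 and 7.39. Recoverin, encoded by Rcvrn, was at 5.19 and 4.47 against 5.44 and 5.62 (0.69 ± 0.39). The guanylate cyclase Gucy2e, at 6.47 and 6.40 against 6.56 and 6.55, and the rod transcription factor Nrl, at 6.04 and 6.00 against 6.02 and 6.19, showed differences of 0.12 ± 0.20 and 0.09 ± 0.26. Among structural genes, the axoneme protein gene Rp1 was at 5.60 and 5.46 against 6.80 and 7.97 (1.85 ± 0.53), and the disc rim gene Prph2 at 6.87 and 7.13 against 7.52 and 7.84 (0.69 ± 0.35). Rp1 did not overlap between the groups by a wide margin, while Rom1, a partner of Prph2, did overlap, at 6.13 and 5.78 against 6.12 and 7.16.

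**Figure D1:**
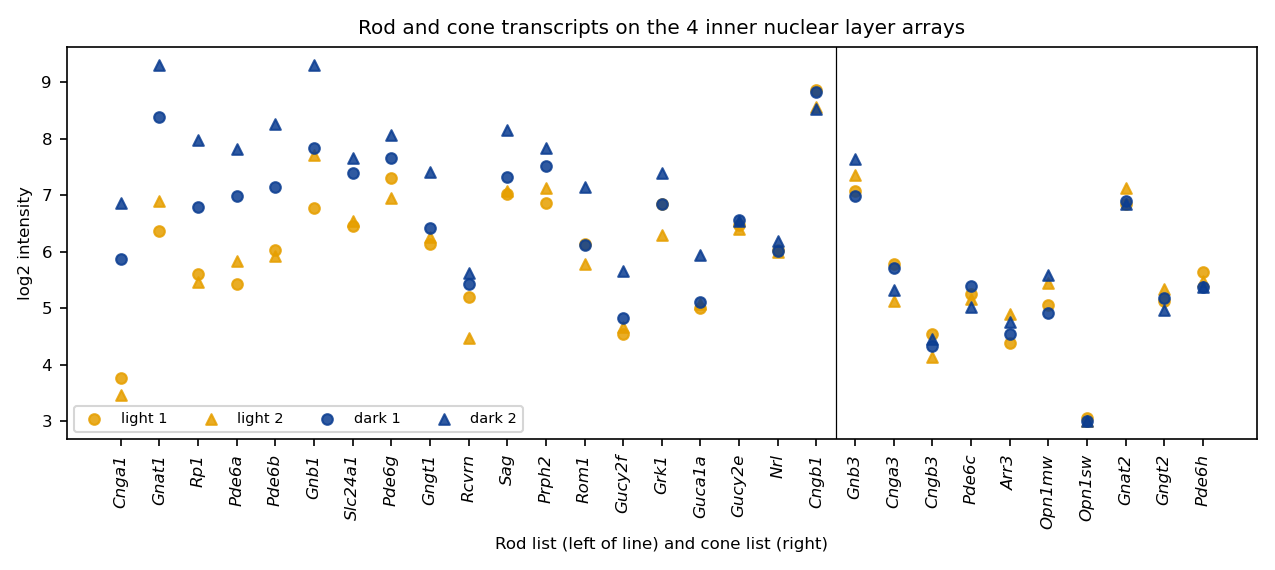
Each point is the log2 intensity of a gene on 1 of the 4 INL arrays (orange light, blue dark; circle for number 1, triangle for number 2), for 19 rod genes left of the line and 10 cone genes right of it. The blue points lie above the orange points for 16 of the rod genes, from Cnga1 at 2.75 down, while for the cone genes they do so in none, and lie below the orange points in 1, Pde6h.

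As a list, 18 of the 19 measured rod genes were above 0 and the median difference was 0.69, against -0.02 for all genes tested. The dark and light arrays did not overlap, with dark higher, for 16 of 19 rod genes and for 11.9% of all genes. Some of these gaps were very small, as with Grk1 at 6.84 on a light and on a dark array, and a gap of at least 0.1 was found for 13 of 19 rod genes and for 6.79% of all genes. An unadjusted p under 0.05 with dark higher was found for 8 of the 19 and for 1.31% of all genes, and none passed after adjustment. The mean level of the list was 6.15 and 6.13 on the light arrays and 6.79 and 7.46 on the dark arrays. Cone genes had a median difference of 0.00 over 10 measured members, and in none of them were both dark arrays above both light arrays. Cone transducin Gnat2 was at 6.85 and 7.13 against 6.90 and 6.84, and cone arrestin Arr3 at 4.38 and 4.90 against 4.54 and 4.75.

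The rod difference was carried more by 1 dark array than by the other. Without the dark array numbered 2 the median was 0.53 and 4 of the 19 genes had an unadjusted p under 0.05, and without the dark array numbered 1 the median was 1.11 with 10 genes. Leaving out the light array with Y-linked signal gave a median of 0.86, and leaving out the other light array 0.71. In bulk samples such as these, a different number of cells of a type and a different amount of RNA per cell cannot be told apart.

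Rod transcripts are far more abundant in the layer next to the INL, and the arrays of the other layers show how they vary there. The rod list had a mean level of 9.23 in the photoreceptor layer, 6.78 in the IPL and 6.57 in the GCL, where rods have no cell bodies. Within the light-adapted GCL its 2 arrays stood at 6.16 and 7.54, a gap of 1.38 between replicates, and the dark-adapted GCL arrays were at 6.59 and 6.01. Within the light-adapted INL the gap was 0.02, and within the dark-adapted INL 0.66. The groups differed in the INL by 0.98 on average, a distance smaller than the gap inside the light-adapted GCL. The median dark effect of the rod list was 0.04 in the photoreceptor layer, -0.18 in the IPL, -0.51 in the GCL and 0.02 in the whole retina.

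Photoreceptor-layer genes outside the lists also had positive median differences, but these were carried mainly by the dark array numbered 2. Genes were sorted by how much higher they were in the photoreceptor layer than in the mean of IPL and GCL, using no INL array. In the 89 genes more than 2 above, the median INL difference was 0.58, and dark was above light without overlap in 44 (49.4%, against 11.9% of all genes). The 400 genes between 1 and 2 had a median of 0.28, the 1081 between 0.5 and 1 had 0.15, and the 7169 between -0.5 and 0 had -0.06. The 400 genes averaged 5.60 and 5.91 on the light arrays and 5.67 and 6.40 on the dark arrays. Thus the dark array numbered 1 lay below the light array numbered 2 for them, as it did for the 1081 genes. With the rod and cone lists taken out, 70 genes were left above 2, their median was 0.55 and 67 of them were above 0. These 70 genes averaged 5.44 and 5.69 on the light arrays and 5.74 and 6.55 on the dark arrays, so only the dark array numbered 2 stood well apart for them. The part of photoreceptor RNA in these differences was not tested.

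**Figure D2:**
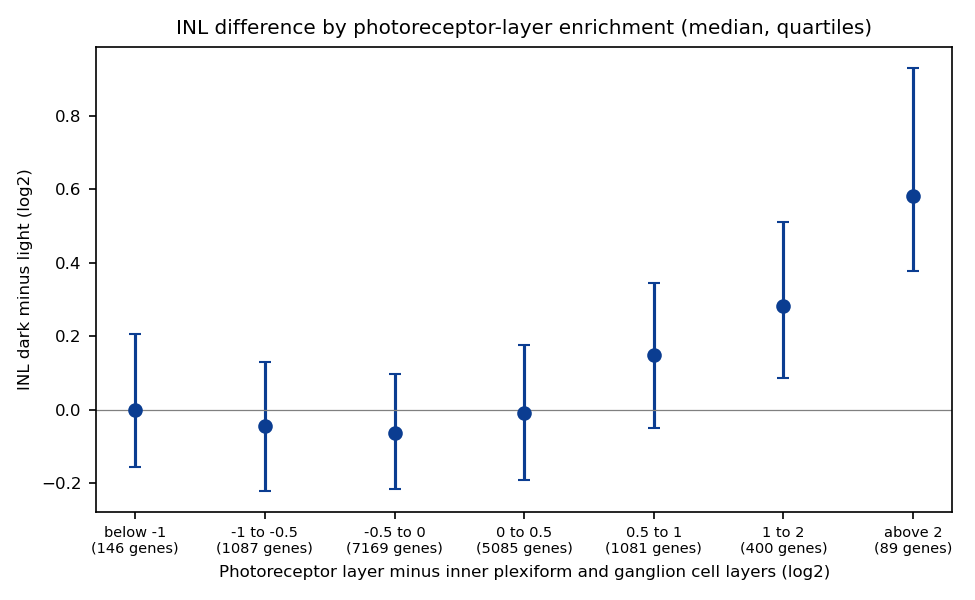
Median (point) and quartiles (bars) of the INL dark minus light difference in log2 units, for genes grouped by how much higher they were in the photoreceptor layer than in the IPL and GCL. The medians run from 0.00 and -0.04 at the left to 0.58 in the 89 genes at the right. In the groups 0.5 to 1 and 1 to 2, the dark array numbered 1 averaged below the light array numbered 2.

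The 12 genes of smallest p with dark higher included 8 that were more than 1 above the IPL and GCL in the photoreceptor layer, a property of 3.25% of all genes. Their INL differences are given as values, since none passed. Syne2, which encodes the nuclear envelope protein nesprin-2 that positions nuclei in photoreceptors, was at 6.17 and 6.09 in the light and at 8.03 and 7.46 in the dark. The arrays were well apart, and the difference of 1.62 ± 0.26 had the smallest p of all genes (adjusted p = 0.119). A second probe set of the gene gave 2.04 while 2 others gave 0.15 and 0.06, so probe sets of Syne2 disagreed. With weights for array quality in the fit, Syne2 alone passed (adjusted p = 0.043). Of its dark arrays the one numbered 1 was the higher. With the rod list level as a covariate the Syne2 difference was 1.62 and its adjusted p was 1. The same covariate moved Trpm1 from -0.83 to -0.44, Paip2 from -0.95 to -0.575 and Atp1b3 from -1.56 to -1.23. Its slope comes from replicate differences in all groups, among which the light-adapted GCL had the largest gap in rod level (1.38). It therefore cannot show what rod RNA adds to any of these genes in the INL.

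Further genes of this group act in cilia or at the photoreceptor terminal. Bbs9, a subunit of the BBSome that carries cargo in cilia, was at 6.06 and 6.47 against 7.13 and 7.73 (1.16 ± 0.26). Mak, a kinase of the photoreceptor axoneme, was at 5.65 and 5.95 against 6.97 and 7.37 (1.37 ± 0.37). Cplx4, the complexin of ribbon synapses, was at 5.35 and 4.93 against 6.15 and 6.85 (1.36 ± 0.31). In all 3 genes both dark arrays lay above both light arrays, and each was at 8.60 to 8.69 in the photoreceptor layer. Wdr78, an axonemal dynein gene, was higher by 1.29 ± 0.34, with a level of 8.90 in the photoreceptor layer.

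The other 4 genes of the 12 were 0.20 to 0.85 above the IPL and GCL in the photoreceptor layer, short of that limit of 1. The interferon-inducible Ifi214 was at 4.50 and 3.86 in the light and at 5.66 and 5.90 in the dark (1.60 ± 0.42). Pabpc1l2b, a poly(A)-binding protein gene, was at 6.11 and 5.67 against 7.09 and 6.68 (0.99 ± 0.26), and in the IPL its dark effect was 1.14 ± 0.26 and passed there (adjusted p = 0.038). Pa2g4, a growth regulator that binds ribosomes, was at 4.84 and 5.23 against 5.75 and 6.16. The unnamed transcript 1110002L01Rik was at 4.28 and 4.47 against 5.69 and 5.55. All 4 were clear of overlap, as the choice by p makes likely.

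**Figure D3:**
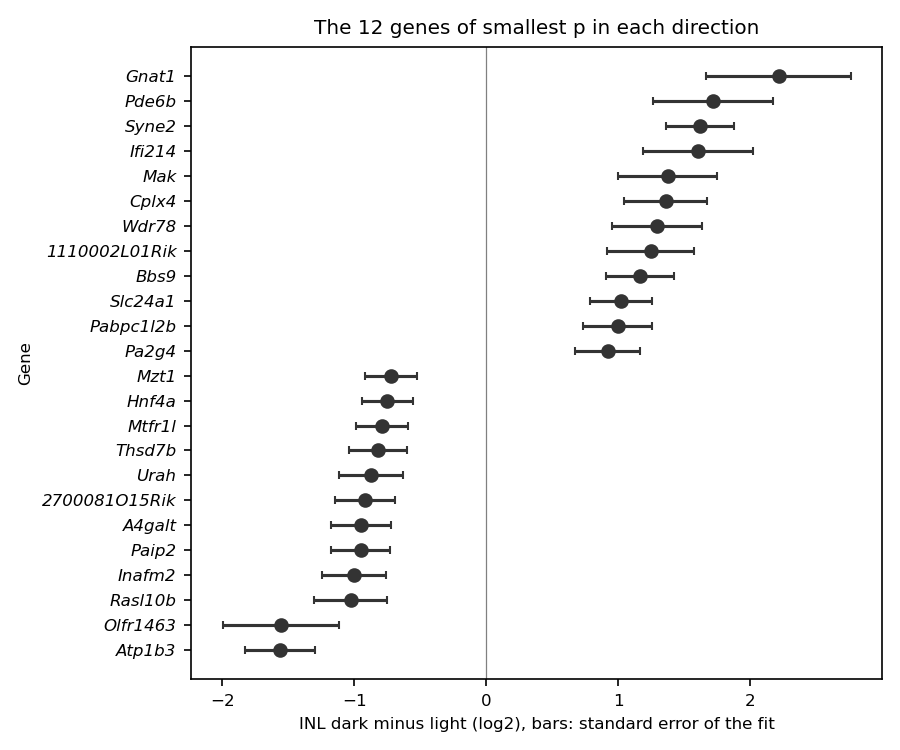
INL dark minus light difference in log2 units (points) with the standard error of the fit (bars) for the 12 genes of smallest p in each direction. None passed the threshold after adjustment. Gnat1 at 2.21 and Atp1b3 at -1.56 are the ends of the range.

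On the lower side, Atp1b3, the β3 subunit of the sodium and potassium pump, had the smallest p. It was at 4.68 and 4.44 on the light arrays, and both dark arrays were at the floor. The difference of -1.56 ± 0.26 (adjusted p = 0.130) is a bound, and light was at least 2.95-fold above dark. The size depends on the floor: it was -0.56 with a floor at 16 and -0.95 on a scale of log2 of intensity plus 16, and the gene was not tested when the filter was set on the INL arrays. A second probe set gave -1.50. Paip2, which restrains translation by binding poly(A)-binding protein, was at 6.32 and 6.59 in the light and at 5.54 and 5.47 in the dark (-0.95 ± 0.22, adjusted p = 1). Its groups were well separated, by more than the spread inside either.

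Several lower genes had closely matched replicates. Hnf4a, a nuclear receptor, was at 6.82 and 6.79 against 5.98 and 6.13 (-0.75 ± 0.19), and Rasl10b, a small GTPase, at 6.92 and 6.89 against 5.78 and 5.97 (-1.03 ± 0.28). A4galt, a glycosphingolipid galactosyltransferase, was at 7.25 and 6.90 against 6.11 and 6.13 (-0.95 ± 0.23). Inafm2 was lower by 1.00 ± 0.24, 2700081O15Rik by 0.92 ± 0.23, Mtfr1l by 0.79 ± 0.20, Thsd7b by 0.82 ± 0.22 and Urah by 0.87 ± 0.24. The olfactory receptor Olfr1463 was at 6.98 and 6.21 against 5.32 and 4.76. Mzt1, a part of the γ-tubulin complex, gave -0.72 ± 0.20, but its other probe set gave 0.26. Only Atp1b3 and Paip2 of these 12 were more than 1 above the IPL and GCL in the photoreceptor layer.

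The ON bipolar cascade was measured for all 13 listed genes, and Trpm1 stood out from it on the low side. Trpm1, the channel that opens when mGluR6 falls silent, was at 6.98 and 6.82 in the light and at 6.13 and 6.01 in the dark. Both dark arrays were below both light arrays, and the difference was -0.83 ± 0.25 (adjusted p = 1). Grm6, the receptor itself, was at 5.91 and 5.55 against 5.72 and 6.54 (0.40 ± 0.25), with overlapping groups. Nyx, which encodes nyctalopin, was steady at 9.65 and 9.64 against 9.64 and 9.46, and the scaffold receptor Gpr179 was at 7.46 and 7.62 against 7.27 and 7.89. The RGS complex that speeds the G protein gave -0.35 ± 0.23 for Rgs11, 0.32 ± 0.45 for Rgs7 and 0.53 ± 0.33 for Gnb5. The list median was 0.09 (0.43 and -0.26 without the dark array numbered 1 and 2), with 3 of 13 genes lower and 1 higher without overlap, against 18.3% and 11.9% of all genes.

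Bipolar cell markers as a group had a median difference of 0.03 over 15 genes, which was 0.57 without the dark array numbered 1 and -0.11 without the one numbered 2. Prkca, the kinase that marks rod bipolar cells, was at 6.73 and 7.12 against 6.48 and 7.83. Cabp5, a calcium-binding protein of several bipolar types, was at 6.46 and 7.53 in the light and at 6.05 and 7.66 in the dark. Grik1, a kainate receptor of OFF bipolar cells, was at 4.68 and 5.76 against 4.89 and 6.91. In these 3 genes the spread between arrays of 1 condition exceeded the difference between conditions, and the arrays numbered 2 were the higher ones in both. The bipolar list mean was 6.68 and 6.87 in the light and 6.58 and 7.24 in the dark.

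The other resident cells gave small medians, some of which turned with the array left out. Amacrine markers had a median of -0.13 (-0.03 without the dark array numbered 2), with 4 of 15 above 0. Gad1, which makes GABA, was at 7.25 and 7.54 against 7.11 and 7.02 (-0.33 ± 0.25), and Th, the dopamine-synthesising enzyme of a rare amacrine type, was at 6.33 and 6.30 against 6.57 and 6.53 (0.24 ± 0.30). Horizontal cell markers had a median of -0.01 over 7 genes. Calb1 among them was at 3.00 and 4.37 against 3.60 and 5.96, a spread inside each condition larger than the 1.10 between them. Müller glia markers had a median of 0.06 over 15 genes, which was 0.36 and -0.27 without the dark array numbered 1 and 2. Among them Rlbp1 was at 7.13 and 7.27 against 7.04 and 7.76, and Glul was at 8.46 and 8.98 against 8.66 and 9.21.

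Immediate early genes had the lowest median of the 32 lists, a small one that turned with the array left out. Of the 22 measured immediate early genes, 6 were lower in the dark without overlap (27.3%, against 18.3% of all genes) and 2 were higher, and their median was -0.18 (-0.30 without the dark array numbered 1 and 0.04 without the one numbered 2). Btg2, an antiproliferative gene, was at 6.31 and 6.38 against 5.48 and 6.04 (-0.58 ± 0.24). Fos was at 5.24 and 5.54 against 5.16 and 4.98 (-0.32 ± 0.28), and Egr1 at 4.75 and 6.08 against 5.22 and 4.54, so that Egr1 varied more between the light arrays than between the conditions. Jund went the other way, at 6.72 and 6.83 against 7.28 and 7.10 (0.42 ± 0.23). Feedback genes of the cAMP and MAP kinase pathways had a median of -0.06, with Dusp1 at 6.74 and 6.43 against 6.31 and 6.14.

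Clock genes had a median of 0.04 over 20 measured members (-0.05 to 0.24 without each array in turn). Per1 was at 6.57 and 6.92 against 6.68 and 6.74, and Per2 at 6.36 and 6.01 against 6.16 and 6.20, both with overlapping groups. Arntl, which encodes BMAL1, was at 5.87 and 5.90 against 6.05 and 6.42 (0.34 ± 0.23). Nr1d1, the REV-ERBα repressor, was at 8.20 and 8.85 against 7.68 and 8.66, and Dbp at 7.53 and 7.29 against 6.85 and 7.50. The 95% intervals were wide enough to hold changes of moderate size in either direction, from -0.55 to 0.49 for Per1 and from -0.85 to 0.39 for Dbp.

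The dopamine and melatonin list had a median of 0.32 (0.20 to 0.32 without each array in turn), with 6 of its 9 measured genes higher in the dark without overlap (66.7%, against 11.9% of all genes). Its largest value was phosducin, Pdc, a photoreceptor protein that binds transducin βγ, at 6.08 and 6.36 against 7.23 and 8.64 (1.71 ± 0.57). The dopamine transporter Slc6a3 was at 6.71 and 6.40 against 6.90 and 6.88 (0.34 ± 0.21). The receptors Drd2, at 6.42 and 6.55 against 6.66 and 7.33, and Drd4, at 6.84 and 6.60 against 7.14 and 6.94, differed by 0.51 ± 0.29 and 0.32 ± 0.22. Aanat, the melatonin-synthesis enzyme, was at 5.12 on both light arrays and at 5.63 and 5.25 in the dark. None of these was called, and the differences other than that of Pdc lie within 2 standard errors.

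Transmission and metabolism lists had medians near 0, several of which turned with the array left out. Glutamate receptors and scaffolds had a median of 0.00 over 24 genes, GABA and glycine signalling 0.05 over 17, synaptic vesicle and SNARE genes -0.03 over 27, and potassium channels 0.02 over 23. Without the dark array numbered 1 and 2, the glutamate median was 0.30 and -0.08 and the GABA and glycine median 0.11 and -0.07. The vesicle and SNARE median was 0.22 and -0.12, and that of potassium channels -0.01 and 0.06. Gabrr3, a GABA receptor subunit of the ρ class found on bipolar cells, was at 5.09 and 5.48 against 6.21 and 6.16 (0.90 ± 0.31), with clearly separate groups. Cacna1f, the calcium channel of ribbon synapses, was at 6.47 and 7.15 against 7.45 and 7.61 (0.73 ± 0.26), and Cacna1a, a calcium channel of conventional synapses, at 6.64 and 6.51 against 6.05 and 6.01 (-0.55 ± 0.24). Oxidative phosphorylation had a median of 0.03 and glycolysis 0.06. Without the dark array numbered 1 and 2 these were 0.23 and -0.16 for oxidative phosphorylation and 0.28 and -0.08 for glycolysis. Hexokinase Hk2 was at 5.64 and 5.07 against 5.99 and 5.87 (0.57 ± 0.33).

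**Figure D4:**
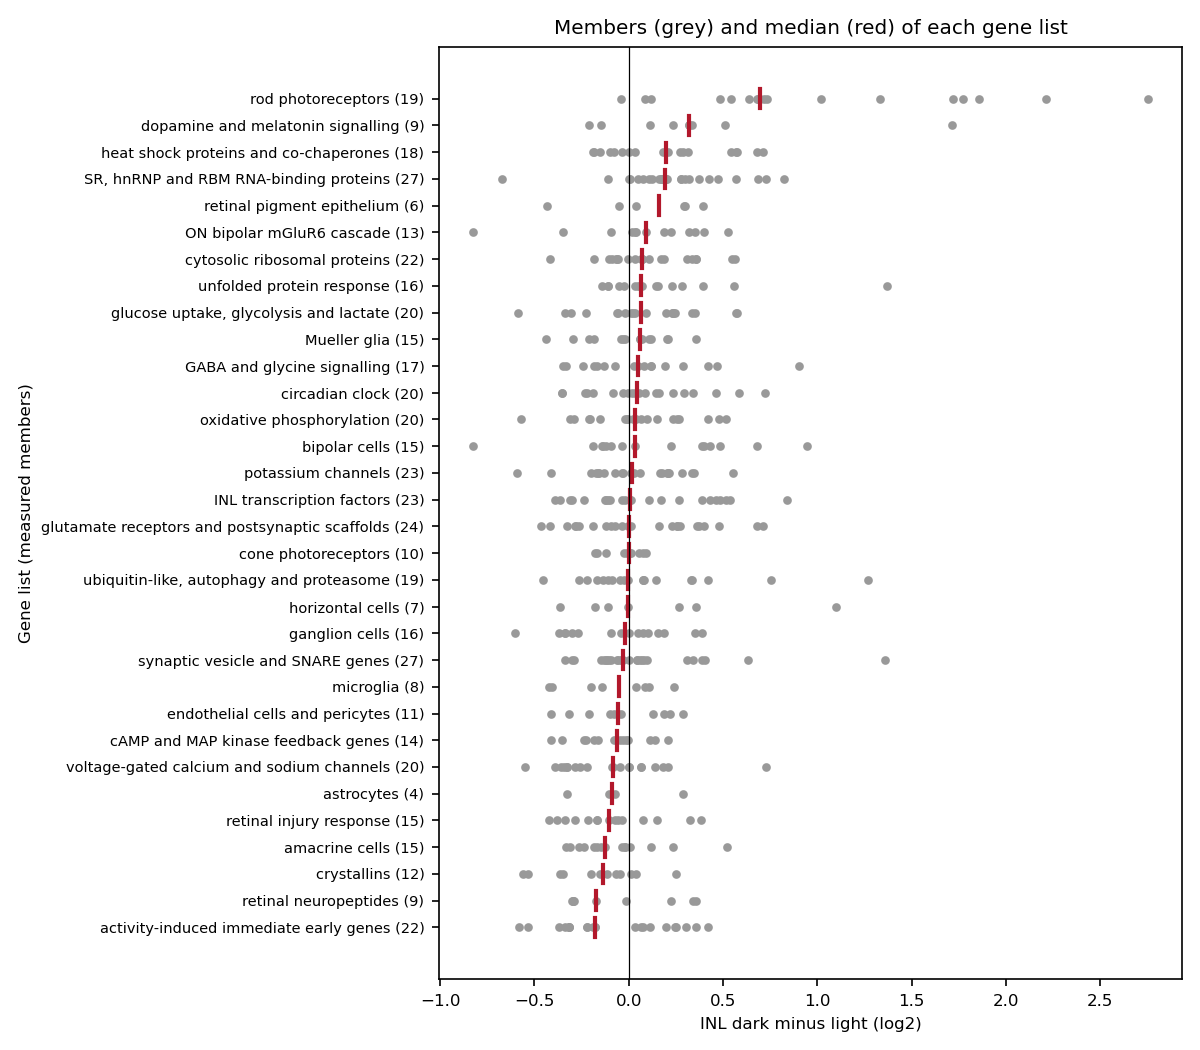
INL dark minus light difference in log2 units of every measured member (grey) of the 32 gene lists, with each list's median (red) and the number measured in brackets. The rod list has the highest median, 0.69, followed by dopamine and melatonin signalling at 0.32, and immediate early genes have the lowest, -0.18.

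The dark effect in the INL was then set against the mean dark effect of the photoreceptor layer, IPL and GCL in the same fit. In this test 2 genes passed (0.0133% of 15057), Paip2 and the short-wavelength cone opsin Opn1sw, and 548 had an unadjusted p under 0.05 (3.64%). Paip2 had an INL difference of -0.95 ± 0.22, and it rose in the photoreceptor layer by 2.23 ± 0.22 (adjusted p = 0.00011) and in the IPL by 0.98 ± 0.22 (adjusted p = 0.037). In the GCL it differed by 1.25 ± 0.22 and in the whole retina by 1.05 ± 0.22, without passing. The INL minus the mean of the others was -2.44 ± 0.26 (adjusted p = 0.00049). Against each layer singly the difference was -3.18, -1.93 and -2.20 for photoreceptor layer, IPL and GCL, and all 3 passed (adjusted p = 9.7e-05, 0.032 and 0.031).

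On the arrays, Paip2 in the photoreceptor layer was at 5.78 and 5.68 in the light and at 7.94 and 7.98 in the dark. In the IPL it was at 5.33 and 5.46 against 6.43 and 6.31, and in the GCL at 5.03 and 4.27 against 5.81 and 5.98. Among the dissected layers, light stood above dark in the INL and dark above light in the other 3, with no overlap in any of them. Leaving out any single INL array kept it past the threshold (-2.30 to -2.58, adjusted p at most 0.018). With the rod list level of each array as a covariate it was -1.99 (adjusted p = 0.055), no longer past.

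The Opn1sw result came from outside the INL. Its difference between layers was 2.03 ± 0.29 (adjusted p = 0.020), while its 4 INL arrays were at 3.05, 3.00, 3.00 and 3.00, at or next to the floor. In the photoreceptor layer it was at 9.30 and 9.12 in the light and at the floor on both dark arrays. Leaving out any 1 INL array ended the call (adjusted p = 0.136 to 0.232). Nothing about Opn1sw in INL cells can be read at this signal.

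Atp1b3 and Syne2 came next and missed the threshold (adjusted p = 0.066 for both). Both passed with array weights (adjusted p = 0.046 for Atp1b3 and 0.031 for Syne2) and with the replicate number as a block (0.040 and 0.036). Atp1b3 rose in the photoreceptor layer by 1.96 ± 0.26 (adjusted p = 0.0038) and in the whole retina by 1.61 ± 0.26 (adjusted p = 0.047), and in the IPL it fell by 1.18 ± 0.26 to the floor (adjusted p = 0.035, a bound). The INL value of -1.56 thus lay on the side of the IPL, and the INL and IPL effects differed by -0.38 ± 0.37. Against the photoreceptor layer singly the difference of Atp1b3 was -3.52 ± 0.37 and passed in limma (adjusted p = 0.00019), again a bound. Syne2 had a difference of 1.78 ± 0.30 against the other layers. It was at 9.00 and 9.20 in the light-adapted photoreceptor layer and at 8.94 and 9.12 in the dark. For Trpm1 the INL minus other layers was -1.33 ± 0.29 (adjusted p = 0.59). Its level was 0.77 and 0.80 higher in the dark in IPL and GCL, and -0.33 in the whole retina, none of which passed.

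**Figure D5:**
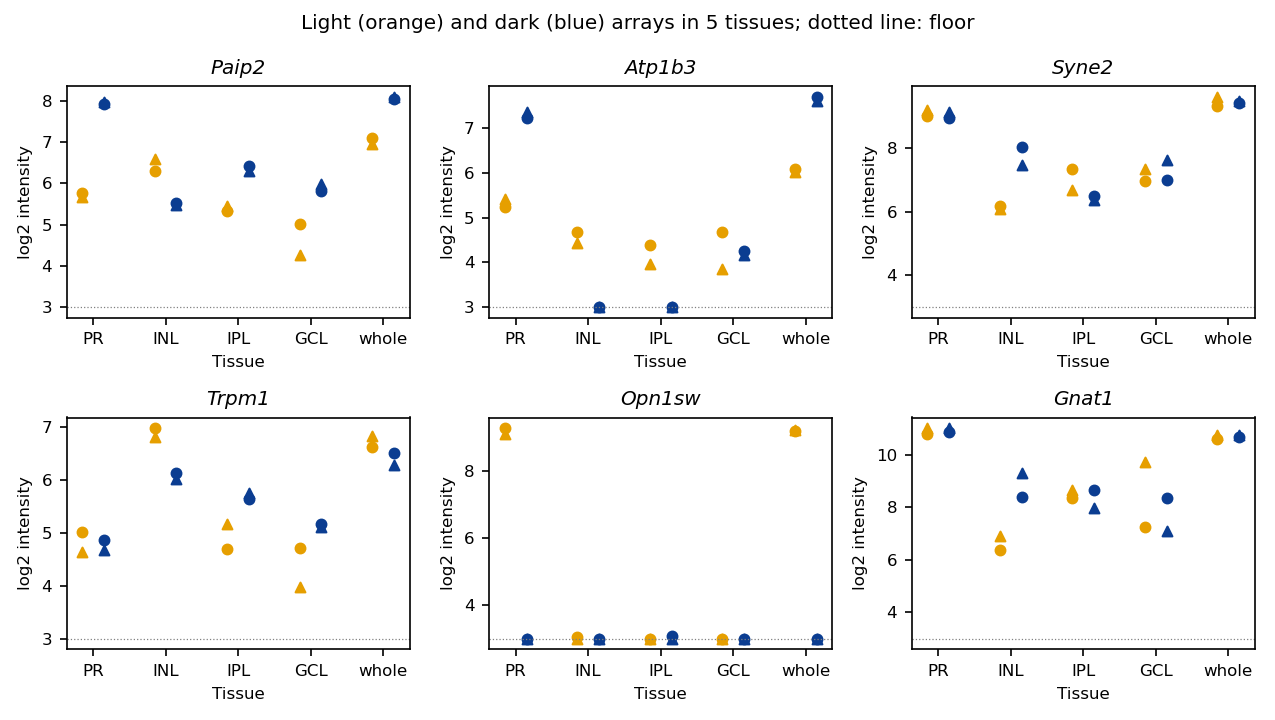
Log2 intensity on every array for 6 genes, by tissue (PR, photoreceptor layer; INL; IPL; GCL; whole retina), with light arrays in orange, dark arrays in blue, circles for number 1 and triangles for number 2; the dotted line is the floor at 3.00. Paip2 is lower in the dark in the INL and higher in the other tissues, Atp1b3 reaches the floor in the dark INL and IPL, and Gnat1 spreads widely within the GCL.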

How the data were processed

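The authors deposited 1 table of GCRMA values, a method that corrects background and summarises probe sets (per the submitters' processing notes; its version is not given in the sources used here). Per the authors' table, each value is a linear intensity, for 35557 probe sets and 20 arrays, a scale read from the values themselves; 0 columns of samples were left unused. Log2 was taken after setting values under 8 to 8. The platform annotation gave 1 symbol for 21789 probe sets (21698 matched a RefSeq gene identifier, GRCm38.p6), several for 1621 and none for 12147. Probe sets over 5 (log2) on at least 2 of the 20 arrays were kept, 16444 in all, and each gene was represented by its brightest probe set, giving 15057 genes.

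Limma 3.58.1 (R 4.3.3) was fitted to all 20 arrays with 10 group means, an intensity trend and 10 residual degrees of freedom. P-values are two-sided and were adjusted by Benjamini-Hochberg over all genes, with a threshold of 0.05. The script was tested on simulated data. Each INL difference rests on the 4 INL arrays, while its standard error uses the replicate spread of all 10 groups.

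The genes named were the 12 of largest difference in each direction among those past the threshold, filled with the smallest p where too few passed; up to 4 called members of each of 32 lists, or the 2 of smallest p; genes past the layer difference test; and fixed markers. Other list members were named after their values were seen. The members, lists and rules were chosen with earlier results of these data known. Alternatives changed the normalisation, filter, floor, probe set rule, variance model, arrays in the fit and replicate block; those with the rod list as a covariate, against single layers and with a minimum gap of 0.1 between groups were added after seeing the data. Same-numbered arrays had deviations from their group means that correlated at 0.344 across genes, over only 2 pairs, so the numbers were not taken to pair the samples.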

Additional observations from a re-analysis of the deposited data

Results flagged for a closer look

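Paip2 and Opn1sw drew attention because the effect of darkness in the INL differed from its mean effect in the other 3 dissected layers by a test of the difference itself. For Paip2 this difference was -2.44, with a lower level in the dark in the INL and a higher one in the photoreceptor layer, the IPL and the GCL. For Opn1sw it was 2.03, set by the photoreceptor layer, where both dark arrays were under the floor, while the INL had no signal in either condition.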

How the results depend on the processing

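With 2 arrays per condition, changes well over the typical standard error were needed for a call, and genes near the floor give bounds. The count of genes past the threshold between dark and light INL was 0 in both directions under every alternative tried, except with array weights, where 1 gene (Syne2) was higher in the dark. With the replicate number as a block, the replicate block, it was 0 and 0. In that limma fit 333 genes (2.21%) had an unadjusted p under 0.05 with dark higher, against 197 (1.31%) in the main fit. The count for the INL against the other layers, 2 in the report, was 4 with array weights and 4 with the replicate block. Both times Atp1b3 and Syne2 were added. It was 1 with the filter set on the INL arrays and 1 when whole retina arrays were left out. The count was 0 with the rod list level as a covariate, 6 against the IPL singly and 1 against the GCL singly. Against the photoreceptor layer singly, the genes that passed included Paip2, Opn1sw and Atp1b3. Leaving out the arrays with Y-linked signal left 1 light-adapted INL array and no light-adapted GCL array. That test was therefore against the photoreceptor layer and IPL only, and Paip2 differed by -2.72. Without each INL array in turn Paip2 differed by -2.30 to -2.58. The cause of these shifts was not tested. Paip2 passed in all of these counts except that with the rod covariate, and against each of the 3 layers singly. Of 491 values of the 24 leading genes under these alternatives, 0 had the other sign, and of 2698 values of all 132 named genes, 84 did, none of them called. The 24 were chosen by p in this same comparison, and most alternatives used the same 4 INL arrays. Unchanged signs were therefore likely from the choice and are no separate check. Because the rod covariate is the mean of rod genes themselves, its effect on those genes (median 0.01) follows from its construction.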

Other observations

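Several groups not described above moved with the array number rather than with light. SR, hnRNP and RBM RNA-binding proteins, which splice and package transcripts, had a list mean of 7.01 and 7.52 on the light arrays and of 7.10 and 7.90 on the dark arrays, with the arrays numbered 2 higher in both conditions. The list's median difference of 0.19 was 0.69 without the dark array numbered 1 and -0.25 without the one numbered 2. The splicing kinase Clk4 was at 4.72 and 6.41 in the light and at 4.44 and 6.68 in the dark, a dark minus light difference of 0.00, and Hnrnpk was at 6.79 and 7.75 against 6.58 and 8.33. Of the 32 lists, 18 had a higher mean on both arrays numbered 2, 6 on both numbered 1, 2 on both dark arrays and 4 on both light arrays. Among single genes, 20.7% were higher on both arrays numbered 2 and 22.8% on both numbered 1, against 11.9% and 18.3% for the split by darkness. In the same RNA-binding list, Hnrnpc did not overlap between conditions, at 5.10 and 5.74 against 6.03 and 6.45. Its arrays numbered 2 were also the higher ones in both. Tra2a was lower in the dark without overlap, at 7.63 and 8.12 against 7.31 and 7.10. Over the alternatives the Tra2a difference ran from -0.92 to 0.39, so its sign was not stable. Neither was called.

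Heat shock genes had a median difference of 0.20 over 18 members, which was 0.40 without the dark array numbered 1 and -0.05 without the one numbered 2. Ahsa1, which activates HSP90, was at 6.60 and 6.35 in the light and at 7.11 and 7.26 in the dark (0.71 ± 0.23). In the IPL its dark effect was 1.36 ± 0.23 and passed there in limma (adjusted p = 0.012). The endoplasmic reticulum chaperone Dnajb9 was near the floor on 3 arrays, at 3.00, 3.22 and 3.12, and at 5.84 on the dark array numbered 2. Crystallins had a median of -0.13, with 5 of 12 lower in the dark without overlap (41.7%, against 18.3% of all genes); Crybb1 was at 7.26 and 7.37 against 7.02 and 6.49. The 406 chemosensory receptor genes, which serve smell and taste, had a median of -0.08, close to the -0.02 of all genes. Outside the gene tests, 9260 probe sets without a single symbol gave 0 calls and 394 unadjusted p under 0.05 (4.25%) in limma.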
